A study of Mus musculus with 3 samples.

Results

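Pla2g6 and 5 genes of the patatin-like phospholipase family (Pnpla2, Pnpla3, Pnpla6, Pnpla7 and Pnpla8) were followed in the RBFOX2 eiCLIP map of primary mouse hepatocytes. A crosslink cluster was assigned to a gene when it lay on the strand of the gene and its midpoint fell inside the gene as annotated by GENCODE M21 on GRCm38. By this rule the 6 genes held 69 of the 87021 clusters in the deposited list, or 0.0793%, and together these summed to 1985 counts. Of the 6 genes, 5 held at least 1 cluster, and 41.7% of the 22028 annotated protein-coding genes did. The 6 genes were chosen with earlier results of these data known, so the contrast is no test of enrichment.

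The libraries were made from C57BL6/J hepatocytes isolated from liver, cultured, crosslinked with UV light at 150 mJ per cm2 and precipitated with an antibody to RBFOX2. All 3 libraries belong to a single group with no treatment or genotype contrast, and the labels give 3 livers and 3 pellets for each. eiCLIP is a form of individual-nucleotide crosslinking and immunoprecipitation, in which the cDNA ends next to the nucleotide that was bound. The count of a cluster was taken to be its number of cDNA starts, and the list holds 1 value per cluster, summed over the 3 libraries. No value below therefore has a spread between libraries, and every interval covers counting error only. The lowest count in the list was 10, the median 17 and the highest 186971. Depth per library was not analysed here. Of 8 hepatocyte marker genes, 7 held clusters (Serpina1a held none), with a summed count of 13858, of which Alb gave 8110. Among the markers of other liver cells, clusters were found in 1 of 4 for Kupffer cells (15 counts, Adgre1), 1 of 4 for endothelial cells (12 counts, Stab2), 1 of 4 for stellate cells (150 counts, Reln) and 0 of 4 for cholangiocytes. The part of these cells in the values below was not tested.

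RBFOX proteins bind RNA at GCAUG, most tightly after a U, and act on alternative exons from the introns beside them. Binding downstream of an exon has mostly been linked to its inclusion, and binding upstream to its skipping. Pla2g6 encodes the calcium-independent phospholipase A2 beta, which frees a fatty acid from membrane phospholipids and carries ankyrin repeats ahead of a patatin-like catalytic domain. Long and short forms of this enzyme are known, which differ by an insertion in the region of the repeats. The patatin fold is shared by the other members: Pnpla2 (adipose triglyceride lipase, which starts the breakdown of stored triglyceride), Pnpla3 (a lipid droplet protein of hepatocytes), Pnpla6 (neuropathy target esterase) and Pnpla7 (its close relative), which act on lysophospholipids at the endoplasmic reticulum, and Pnpla8 (calcium-independent phospholipase A2 gamma of mitochondria and peroxisomes).

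The sequences on which the Pla2g6 result turns are shown first, 5′ to 3′ on the minus strand, with every GCATG (the DNA form of the motif) in capitals. They are the highest cluster of the gene with 50 nt on each side (chr15:79303178-79303386) and the coding cassette exon in the same intron (chr15:79304305-79304469). A cassette exon is here an internal exon of an annotated transcript that another annotated transcript spans and skips.
Pla2g6 highest cluster: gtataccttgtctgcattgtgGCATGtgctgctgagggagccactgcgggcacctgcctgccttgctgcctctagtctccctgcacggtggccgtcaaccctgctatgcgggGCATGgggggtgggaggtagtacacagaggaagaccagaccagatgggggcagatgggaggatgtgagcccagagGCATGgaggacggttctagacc
Pla2g6 cassette exon: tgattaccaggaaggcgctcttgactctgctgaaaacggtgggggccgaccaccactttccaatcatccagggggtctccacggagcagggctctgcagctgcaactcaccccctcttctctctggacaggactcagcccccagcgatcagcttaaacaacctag
The cluster window of 209 nt held 3 copies of GCATG, 1 of them inside the cluster. The cassette exon of 165 nt held 0 copies.

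The corresponding sequences of Pnpla6, on the plus strand, are its second highest cluster (chr8:3538111-3538233) and the cluster just downstream of that (chr8:3538223-3538329), each with 50 nt on each side. Its cassette exon (chr8:3537969-3538085) is shown with the exon of the same number in Pnpla7 (chr2:25050855-25050971), because the relatives can be aligned there.
Pnpla6 cluster 9: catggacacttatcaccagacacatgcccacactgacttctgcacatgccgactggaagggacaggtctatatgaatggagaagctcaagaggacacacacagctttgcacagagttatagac
Pnpla6 cluster 10: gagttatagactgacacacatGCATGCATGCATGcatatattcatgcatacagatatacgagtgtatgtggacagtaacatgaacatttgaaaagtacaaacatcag
Pnpla6 exon 29: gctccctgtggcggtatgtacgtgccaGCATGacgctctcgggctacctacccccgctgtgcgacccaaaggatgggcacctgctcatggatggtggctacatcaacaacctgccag
Pnpla7 exon 29: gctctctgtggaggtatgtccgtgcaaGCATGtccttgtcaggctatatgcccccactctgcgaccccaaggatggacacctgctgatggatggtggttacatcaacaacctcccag
Clusters are numbered from the 5′ end of each gene. The window of cluster 10 held 3 overlapping copies of GCATG, and that of cluster 9 held 0, although a copy after a T lay 46 nt upstream of cluster 9 (chr8:3538110-3538114), with its first base outside the window.

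Pla2g6 (ENSMUSG00000042632.17, chr15:79286228-79328390, minus strand) held the most clusters of the 6 genes, 28, with a summed count of 909 (exact Poisson 95% interval 851 to 970). Among the 9191 protein-coding genes with a cluster, 94.9% had fewer clusters and 96.2% a lower sum. The median gene had 3 clusters and 63 counts. A single cluster carried 33.6% of the Pla2g6 count (Wilson 95% interval 30.6 to 36.7%). For comparison, the 21 other protein-coding genes with exactly 28 clusters had a median of 8.99% in their highest cluster, and 1 of them exceeded Pla2g6. The 3 genes nearest to Pla2g6 in this share were Fnbp1l at 27.6% (232 of 841 counts), Dlc1 at 20.7% (144 of 696) and H2-K1 at 47.3% (1346 of 2844).

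Positions in Pla2g6 were given along Pla2g6-201 (ENSMUST00000047816.14), a coding transcript of 16 exons. Most of the signal lay in intron 8 of this transcript (chr15:79302698-79305702). This intron of 3005 nt, 7.13% of the gene, held 16 of the 28 clusters and 710 of the 909 counts (78.1%, Wilson 95% interval 75.3 to 80.7%). The density was 5.32 clusters per kb in the intron and 0.306 per kb in the remainder of the gene. The 12 clusters elsewhere summed to 199 counts, and none of them exceeded 33 counts. The longest intron, intron 1 with 10078 nt, held 0 clusters, and intron 11 with 7583 nt held 1.

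**Figure D1:**
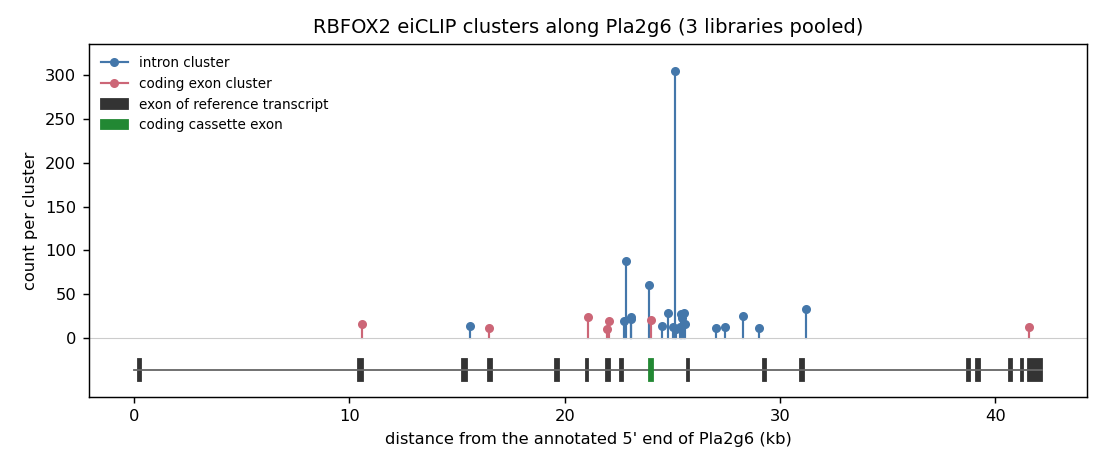
Counts of the 28 RBFOX2 eiCLIP clusters of Pla2g6 (y axis, linear) against distance from the annotated 5′ end of the gene in kb (x axis), with 3 libraries pooled and no error bars. Stems and points are clusters coloured by annotation, dark boxes are exons of Pla2g6-201 and the green box is the coding cassette exon of 165 nt. The highest stems surround the green box, and the long first intron has no stem.

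Concentration of this degree was also seen in other genes. Over the 807 protein-coding genes with at least 20 clusters and an intron with a count, the highest intron of the reference transcript held a median of 36.5% of the gene's count, and 12.0% of the genes reached the 78.1% of Pla2g6. The median length of these introns was 14314 nt. Within windows of 3000 nt, whatever the introns, the best window of Pla2g6 also held 78.1%, against a median of 34.4% over 825 genes, and 76 of the 825 had at least this share. Among 304 genes whose span was within a factor of 2 of that of Pla2g6, the median was 40.6% and 27 genes (8.88%) reached its share.

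Intron 8 contains the only coding cassette exon annotated in Pla2g6. The exon has 165 nt, or 55 codons, and is exon 9 of the coding transcript Pla2g6-210. It is also present in the retained-intron transcript Pla2g6-207 and is skipped by Pla2g6-201, Pla2g6-202, Pla2g6-203 and Pla2g6-206. In Pla2g6-203 there are 9 exons before this place, so that the exon would be number 10 of a transcript that began like it. Intron 8 runs 1233 nt before the exon and 1607 nt after it. By their midpoints, 5 clusters with 213 counts (23.4% of the gene) lay upstream of the exon. Among these was cluster 11, which overlaps the 5′ edge of the exon. Inside the exon lay 1 cluster with 21 counts, and downstream 10 clusters with 476 counts (52.4%). That the highest intron contains or borders a coding cassette exon was seen in 26.6% of the 807 genes, so this feature is not rare.

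In the upstream part, the signal began 36 nt after exon 8. Cluster 7 (chr15:79305658-79305666) had 19 counts. Cluster 8 (chr15:79305520-79305568), 134 nt after exon 8, had 88 counts (exact Poisson 95% interval 70.6 to 108) and was the second highest of the gene, above 97.6% of all clusters in the list. It was followed by cluster 9 (chr15:79305337-79305340) with 22 counts and cluster 10 (chr15:79305288-79305303) with 24. Then came a stretch without clusters up to the exon itself. Cluster 11 (chr15:79304450-79304515) overlapped the 5′ edge of the cassette exon, and so covered its 3′ splice site, and had 60 counts (interval 45.8 to 77.2). Cluster 12 (chr15:79304393-79304404) lay wholly inside the exon with 21 counts. The 2 clusters at or in the exon together had 81 counts.

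Downstream of the exon the first cluster came after 434 nt, cluster 13 (chr15:79303870-79303870) with 14 counts at a single position. Cluster 14 (chr15:79303587-79303604) had 28 counts and overlapped the 5′ edge of a second small exon of 29 nt (chr15:79303574-79303602), which is annotated only in the retained-intron transcript Pla2g6-212. Cluster 15 (chr15:79303362-79303362) had 12 counts. Cluster 16 (chr15:79303228-79303336), the highest of the gene, had 305 counts (interval 272 to 341) over 109 nt, more than 99.5% of all clusters in the list. It lay 968 nt downstream of the coding cassette exon and 530 nt before exon 9 of Pla2g6-201. The 29-nt exon, skipped by 5 transcripts, is also a cassette exon by the definition above, and cluster 16 lay 237 nt downstream of it. Within 500 nt downstream, the 29-nt exon had 3 clusters with 327 counts and the coding cassette exon had 1 with 14. The count of cluster 16 was above that of cluster 8 by more than the counting intervals of either.

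On its 3′ side the signal continued in short clusters towards exon 9. Cluster 17 (chr15:79303206-79303208) had 10 counts and cluster 18 (chr15:79303031-79303031) had 12. Cluster 19 (chr15:79302992-79302995) had 27 counts, cluster 20 (chr15:79302959-79302960) had 23, cluster 21 (chr15:79302865-79302870) had 29 and cluster 22 (chr15:79302821-79302826) had 16. The last of these ended 123 nt before exon 9. These 6 clusters were 1 to 6 nt wide, whereas cluster 16 spanned 109 nt.

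**Figure D2:**
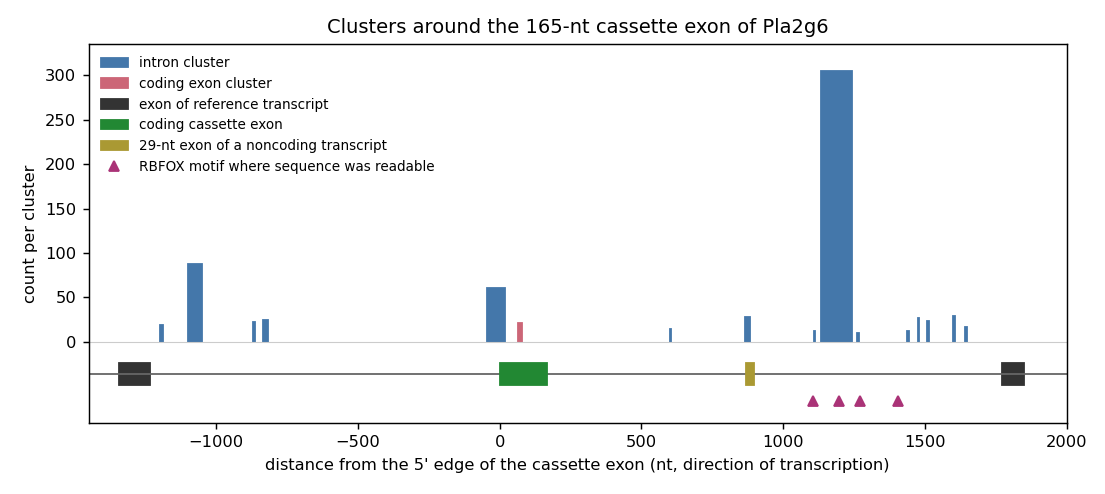
Clusters in intron 8 of Pla2g6, with the count of each cluster (y axis, linear, 3 libraries pooled, no error bars) against distance in nt from the 5′ edge of the cassette exon in the direction of transcription (x axis). Bars span each cluster (drawn at least 6 nt wide), boxes are exons and triangles are copies of GCATG in the parts whose sequence could be read. The tallest bar, 305 counts, stands over a triangle downstream of the exon, and smaller bars of 60 and 21 counts stand at and in the exon.

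Sequence was available only where an annotated transcript covers the position, here a stretch of 594 nt (chr15:79303009-79303602) that forms an exon of Pla2g6-207. This stretch held 4 copies of GCATG, as seen in the sequence printed above for 3 of them. The copy inside cluster 16 began 1030 nt downstream of the cassette exon. The 2 copies on its sides were 24 nt and 28 nt from the edges of the cluster, and the copy on the 5′ side overlapped the position of cluster 15. The fourth was 160 nt from the cluster on its 3′ side. None of the 4 was preceded by T. The windows of clusters 8 to 10, 13, 21 and 22 had no sequence, so that nothing can be said of motifs there.

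The 12 clusters outside intron 8 were small. Of these, 6 lay in coding exons. Cluster 1 (chr15:79317780-79317878) in exon 2 had 16 counts, cluster 3 (chr15:79311881-79311943) in exon 4 had 11, and cluster 4 (chr15:79307321-79307339) in exon 6 had 24. Exon 7, the exon before the one that precedes intron 8, held cluster 5 (chr15:79306406-79306440) with 10 counts and cluster 6 (chr15:79306322-79306348) with 19. Cluster 28 (chr15:79286801-79286837) in the last exon had 13. The covered parts of the windows of clusters 4, 5 and 6 each held GCATG. Clusters 5 and 6 shared the same copy (chr15:79306394-79306398), which lay 7 nt from cluster 5.

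The other 6 were intronic. Cluster 2 (chr15:79312736-79312893) in intron 3 had 14 counts spread over 158 nt, the widest of the gene. Intron 9, which follows the exon after the cassette region, held 4 clusters with 59 counts: cluster 23 (chr15:79301381-79301385) with 11, cluster 24 (chr15:79300957-79300977) with 12, cluster 25 (chr15:79300108-79300135) with 25 and cluster 26 (chr15:79299380-79299388) with 11. Cluster 27 (chr15:79297166-79297190), 108 nt downstream of exon 11, had 33 counts (interval 22.7 to 46.3) and was the highest outside intron 8. In all, 21 of the 28 clusters of Pla2g6 were intronic and 7 were in coding sequence, counting the cassette exon as coding. None lay in a UTR.

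Pnpla6 (ENSMUSG00000004565.15, chr8:3515384-3544267, plus strand) came close to Pla2g6, with 27 clusters and 811 counts (exact Poisson 95% interval 756 to 869), a sum exceeded by that of 390 protein-coding genes where Pla2g6 was exceeded by 350. Along Pnpla6-201, which has 34 exons, intron 29 (3205 nt, 11.1% of the gene) held 14 of the 27 clusters and 578 counts (71.3%, Wilson 95% interval 68.1 to 74.3%). By this measure the layout resembled that of Pla2g6, since in both genes an intron of about 3 kb held most of the count. As for Pla2g6, this was the upper part of a wide distribution: 16.9% of the 807 genes had at least this share in their highest intron. Within windows of 3000 nt the genes were less alike. The best window of Pnpla6 held 55.9% of its count, against 78.1% in Pla2g6, and 195 of 825 genes had at least the share of Pnpla6. Among 243 genes of similar span to Pnpla6, the median was 45.0% and 80 genes (32.9%) reached its share.

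The exon at the 5′ end of this intron is also annotated as a cassette. Exon 29 of Pnpla6-201 (chr8:3537969-3538085, 117 nt or 39 codons) is used by Pnpla6-201, Pnpla6-202 and Pnpla6-212 and skipped by Pnpla6-207 and Pnpla6-211. Pnpla6-207 uses in its place another exon of 117 nt in intron 28 (chr8:3537767-3537883). Cluster 6 (chr8:3537567-3537583, 16 counts) lay before both. Cluster 7 (chr8:3537954-3537970) covered the 3′ splice site of exon 29 with 34 counts, as cluster 11 of Pla2g6 did at its cassette exon. Cluster 8 (chr8:3538032-3538032, 12 counts) lay inside exon 29.

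Downstream of exon 29 the clusters stood closer than in Pla2g6. Cluster 9 (chr8:3538161-3538183) came after 75 nt and had 125 counts (interval 104 to 149), above 98.5% of all clusters. Cluster 10 (chr8:3538273-3538279) came after 187 nt and had 44 counts (interval 32.0 to 59.1). The 3 overlapping copies of GCATG printed above lay between clusters 9 and 10, ending 16 nt or more before cluster 10, and all 3 were preceded by T. In Pla2g6, by contrast, the 434 nt after the cassette exon held no cluster of at least 10 counts.

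The highest cluster of Pnpla6, also in intron 29, had 174 counts (interval 149 to 202). The remaining 11 clusters of intron 29 ranged from 13 to 33 counts. Of these, 2 had GCATG in a complete window: cluster 12 (chr8:3539288-3539298, 13 counts) and a cluster of 16 counts whose position is not reported here. Outside this region, cluster 2 in exon 5 (chr8:3517574-3517673) had 38 counts over 100 nt, and GCATG was found in its covered part.

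**Figure D3:**
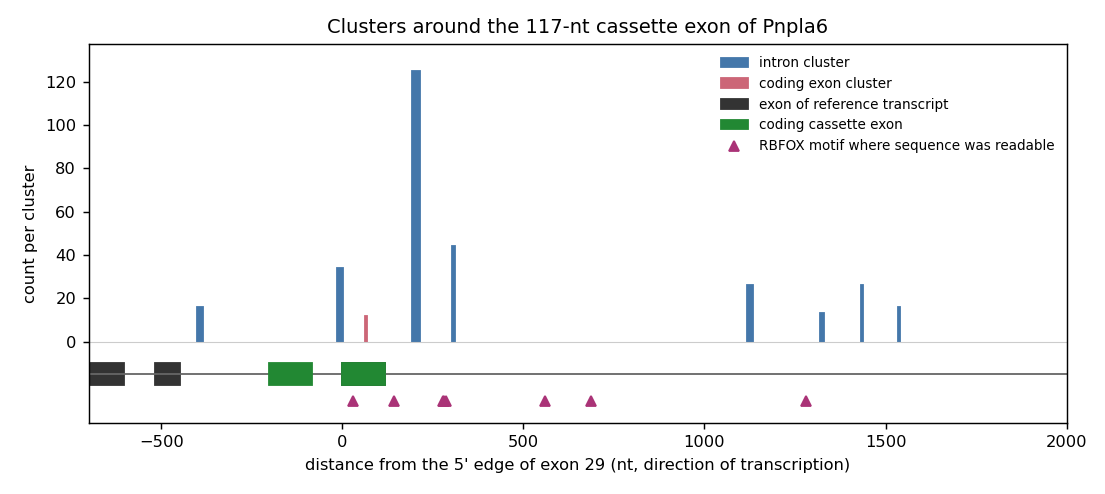
Clusters around exon 29 of Pnpla6, with the count of each cluster (y axis, linear, 3 libraries pooled, no error bars) against distance in nt from the 5′ edge of exon 29 in the direction of transcription (x axis). Bars span each cluster (drawn at least 6 nt wide), dark boxes are exons of Pnpla6-201, green boxes the coding cassette exons and triangles copies of GCATG where sequence could be read. Bars of 125 and 44 counts follow exon 29. The 3′ part of intron 29 is not drawn.

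Pnpla7 (ENSMUSG00000036833.16, chr2:24976033-25054057), the nearest relative of Pnpla6, held 3 clusters with 42 counts (interval 30.3 to 56.8). Its exon 29 also has 117 nt, and 98 of the 117 bases (83.8%) were identical to those of Pnpla6 exon 29 without a gap. Both exons hold GCATG starting at base 28, as the printed sequences show. No cluster lay in exon 29 of Pnpla7, nor in the 629 nt of the intron after it, where Pnpla6 has 3205 nt. The clusters of Pnpla7 were far away, in intron 1 (chr2:24977091-24977094, 11 counts), in intron 17 (chr2:25016348-25016440, 13 counts) and in the 3′ UTR (chr2:25054008-25054010, 18 counts). The last lay next to a GCATG, at chr2:25054004-25054028.
Pnpla7 cluster 3 site: cctctgtgagGCATGggaaggtggg
The RNA level of these genes was not measured here and the list starts at 10 counts, so a missing cluster does not show that RBFOX2 was absent.

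Pnpla2 (ENSMUSG00000025509.15, chr7:141455198-141460743, plus strand) held 5 clusters with 96 counts (interval 77.8 to 117). Its highest cluster (chr7:141458623-141458750) had 40 counts (interval 28.6 to 54.5) over 128 nt, and it lay inside a coding cassette exon of 168 nt (chr7:141458592-141458759). This exon is used by 4 annotated transcripts, among them Pnpla2-203, and skipped by Pnpla2-202. Cluster 3 (chr7:141459131-141459167, 19 counts) was 371 nt downstream of it and reached the first base of exon 7 of Pnpla2-202. Cluster 4 (chr7:141459537-141459571, 11 counts) lay in the coding part of the last exon with a GCATG 20 nt from its 3′ edge (window chr7:141459487-141459621).
Pnpla2 cluster 4: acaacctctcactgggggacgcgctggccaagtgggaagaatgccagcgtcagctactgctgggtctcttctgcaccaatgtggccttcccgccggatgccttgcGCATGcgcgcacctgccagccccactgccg
The remaining clusters of Pnpla2 were in exon 1 (15 counts) and in the 3′ UTR (11 counts). Pnpla2 thus differed from Pla2g6 and Pnpla6 in that the cassette exon itself, and not the intron beside it, carried the highest count.

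Pnpla3 (ENSMUSG00000041653.5, chr15:84167837-84187236) held 0 clusters. Its exons 2 to 5 have 233, 66, 210 and 61 nt, the same lengths as exons 2 to 5 of Pnpla2-202, and no cluster lay in these exons of Pnpla2 either. No cassette exon is annotated in Pnpla3.

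Pnpla8 (ENSMUSG00000036257.15, chr12:44221370-44322532) held 6 clusters with 127 counts (interval 106 to 151), all in its last exon of 11208 nt. Cluster 1 (chr12:44311393-44311447, 12 counts) was in its coding part and the other 5 in the 3′ UTR. The highest was cluster 2 (chr12:44311800-44311835) with 36 counts (interval 25.2 to 49.8), followed by cluster 4 (chr12:44314851-44314856) with 30 and cluster 5 (chr12:44315181-44315193) with 26. Cluster 5 lay on a GCATG, at chr12:44315174-44315198.
Pnpla8 cluster 5 site: ccacaaatatGCATGaatagtttgg
The windows of all 6 clusters could be read, and this was the only 1 with the motif. No cluster of Pnpla8 lay in its 86989 nt of intron, whereas introns held 87.5% of the count in Pla2g6 and 80.4% in Pnpla6. These shares depend on reading exons of retained-intron transcripts as intron. Such exons cover, among others, cluster 16 of Pla2g6 (305 counts, in Pla2g6-207) and cluster 9 of Pnpla6 (125 counts, in Pnpla6-219).

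**Figure D4:**
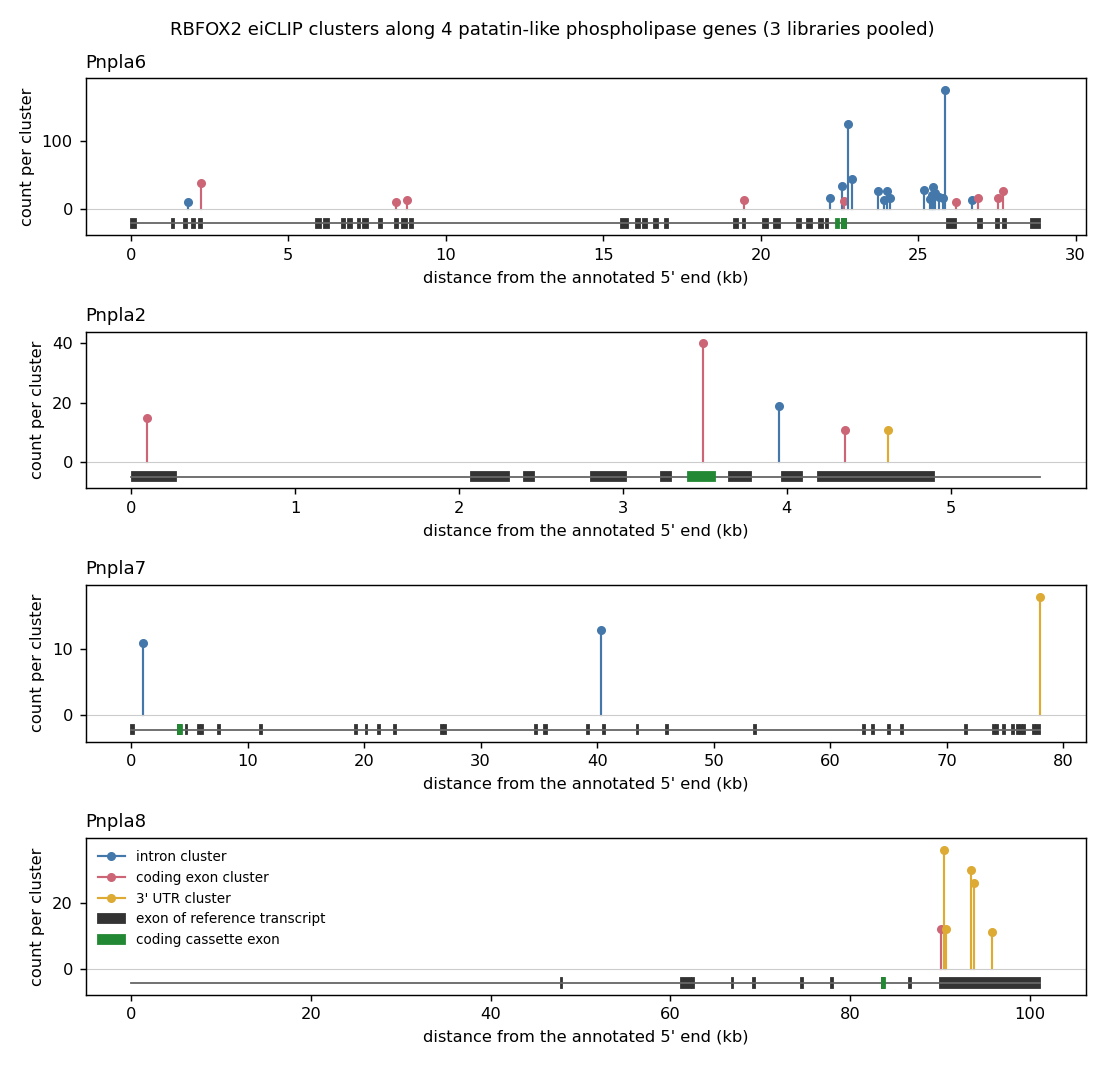
Counts of the clusters of Pnpla6, Pnpla2, Pnpla7 and Pnpla8 (y axes, linear, a scale for each gene, 3 libraries pooled, no error bars) against distance from the annotated 5′ end of each gene in kb (x axes). Stems and points are clusters coloured by annotation, dark boxes exons of the reference transcript and green boxes coding cassette exons. In Pnpla6, 14 of the 27 clusters lie in the intron after a cassette exon, in Pnpla2 the highest lies on a cassette exon, in Pnpla7 the 3 clusters are far apart, and in Pnpla8 all 6 lie in the last exon.

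The place of the clusters in introns or exons was compared between Pla2g6 and the 5 patatin-like genes. Intronic clusters were 21 of 28 in Pla2g6 (75.0%, Wilson 95% interval 56.6 to 87.3%) and 21 of 41 in the others (51.2%, 36.5 to 65.7%), which did not pass a threshold of 0.05 (Fisher's exact test, two-sided, p = 0.0778, odds ratio 2.86). With exons of retained-intron transcripts read as exon, fewer clusters were intronic on both sides, 15 of 28 in Pla2g6 and 12 of 41 in the others. The difference was then 24.3 percentage points and just passed the threshold (Fisher's exact test, p = 0.0493). Clusters of a gene share its transcript and are not replicates. The intronic share over all clusters of the list is not given here. These shares, and the intronic shares of the count given above, therefore cannot be set against the list as a whole. The value in the others was set by Pnpla6, with 18 of 27 intronic (66.7%). The 4 other genes had 3 intronic clusters of 14. Per kb of sequence, exons held more clusters than introns in each of the 5 genes with clusters: 1.64 against 0.554 per kb in Pla2g6, 1.75 against 0.759 in Pnpla6, 1.45 against 0.36 in Pnpla2, 0.187 against 0.0275 in Pnpla7 and 0.423 against 0 in Pnpla8.

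Over the 6 genes, 3 of the 69 clusters (4.35%) had at least 100 counts, where 1.98% of all clusters did. These were cluster 16 of Pla2g6 and the 2 highest clusters of Pnpla6. The median cluster of each gene was far lower, 19 counts in Pla2g6 and 17 in Pnpla6, close to the median of 17 over the whole list. The median was 15 counts in Pnpla2, 13 in Pnpla7 and 19 in Pnpla8. The genes thus differed in their highest clusters and in their number of clusters more than in the median of their listed counts. Because the list starts at 10 counts, similar medians do not show that typical binding was alike.

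**Figure D5:**
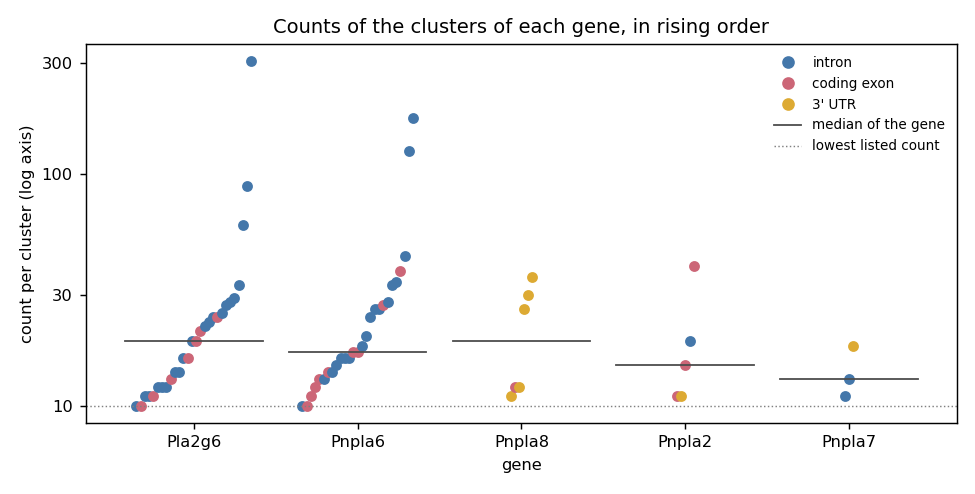
Count of every cluster (y axis, log scale) for the 5 genes with clusters (x axis), in rising order within a gene and coloured by annotation, with 3 libraries pooled and no error bars. Horizontal lines are the medians (19, 17, 19, 15 and 13 counts from left to right) and the dotted line is the lowest count listed, 10. The points of Pla2g6 and Pnpla6 alone rise above 100.

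Complete sequence was available for the windows of 25 of the 69 clusters, and 10 of them (40.0%, Wilson 95% interval 23.4 to 59.3%) held GCATG. Over all 18720 clusters with a complete window the share was 20.2%. A window is complete only where annotated transcripts cover every base, and the shares were not matched for location. The 3 Pla2g6 windows with the motif, for example, are intronic and were readable through the retained-intron transcript Pla2g6-207. The 10 windows were 3 of 5 in Pla2g6, 5 of 11 in Pnpla6, 1 of 3 in Pnpla2 and 1 of 6 in Pnpla8. They were not independent, since the 3 windows of Pla2g6 surround clusters 15 to 17 and share copies of the motif. The motif is a description of these windows and was not tested. With TGCATG in place of GCATG the share was 20%, against 10.4% over all windows, and none of the windows of Pla2g6 was among these 5.

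The same list was read for other genes of phospholipid and triglyceride turnover. Of 43 listed genes, 22 (51.2%) held clusters, near the 41.7% of all protein-coding genes, and none reached the sum of Pla2g6. The 5 highest were Plin2, a coat protein of lipid droplets, with 20 clusters and 667 counts, Mgll (monoglyceride lipase) with 264 counts, Lpgat1 (a lysophospholipid acyltransferase) with 260, Tmem164 with 163 and Lipc (hepatic lipase) with 151. Among 13 other phospholipase A2 genes, 4 held clusters, and their median sum was 14 counts. These were Pla2g4b, Pla2g5, Pla2g12a and Pla2g12b. No cluster was listed in Pla2g4a, Pla2g4c, Pla2g4e, Pla2g4f, Pla2g2d, Pla2g7, Pla2g10, Pla2g15 and Pla2g16. The patatin-like genes outside the 6 held 1 cluster (Pnpla1, 11 counts) and 0 (Pnpla5). Of the cofactors and droplet proteins, 5 of 7 held clusters, among them Abhd5, the activator of Pnpla2, with 4 clusters and 118 counts, while G0s2, the inhibitor of Pnpla2, and Plin3 held none. Of 9 other lipases, 4 held clusters and Lipe, Ces1d, Ces1f, Aadac and Lpl held none. Of 12 genes of lysophospholipid metabolism, 8 held clusters and Gde1, Lpcat1, Lpcat2 and Mboat2 held none.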

How the data were processed

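Hepatocytes were crosslinked and RBFOX2 was precipitated in 3 libraries. According to the methods and the submitters' processing notes, the authors trimmed adaptors (cutadapt) and aligned reads to GRCm38 with STAR 2.4.2a. They kept uniquely mapped reads, removed PCR duplicates by barcode, summed the libraries and grouped cDNA starts with Paraclu. Reads that match several places are therefore not in the list, and a gene without a cluster may have lost such reads. The study counted mice per culture differently from the labels. The deposited counts are whole numbers per cluster, were not normalised, and the sources name no subtraction of an input. They were used as deposited.

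Clusters were assigned by midpoint and strand to GENCODE M21 and classed by their midpoint, coding sequence taking precedence over UTRs, UTRs over exons of non-coding transcripts and these over introns, with exons of retained-intron transcripts read as intron. Reference transcripts were chosen by APPRIS tag, basic tag, coding length and lowest identifier. Sequence was read from annotated transcripts, because no genome sequence was used here, and GCATG was counted on the strand of the gene only. Shares have Wilson and counts exact Poisson 95% intervals. Annotation was tested on simulated positions. Python 3.11.15, scipy 1.17.1 and pandas 2.3.3 were used.

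Members and lists were chosen with earlier results of these data known. Every cluster of Pla2g6 was named, and in other genes the highest cluster and those with GCATG or near (500 nt) a cassette exon. In the pathway list the 5 highest genes and those without clusters were named. The intron shares, windows of 3000 nt and further gene comparisons were added after seeing the data. Alternatives changed the assignment, count filter, merging, annotation rule, window and motif. The sequence and position of the highest Pnpla6 cluster and of 1 neighbour are not reported here.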

Additional observations from a re-analysis of the deposited data

Results flagged for a closer look

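Signal outside the comparisons was found on the opposite strand of 2 genes, where no gene is annotated. A cluster of 2 nt with 10 counts lay opposite Pnpla7 (chr2:24988031-24988032) and a cluster of 1 nt with 10 counts lay opposite Pnpla8 (chr12:44281278-44281278). Both were at the lowest count of the list. No cluster lay opposite the other 4 genes. What these clusters stand for was not tested.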

How the results depend on the processing

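No paired analysis was possible because the 3 libraries were summed before clusters were called, and for the same reason no library could be left out. Of 27 alternatives, 13 kept the value within its limits, and none reversed a direction. Keeping clusters at or above the median count left 15 clusters in Pla2g6 and 21 in the 5 patatin-like genes, with 747 counts in Pla2g6, 40.8% of them in its highest cluster and 86.5% in intron 8. Merging clusters within 200 nt left 16 and 26 clusters and put 47.7% of the Pla2g6 count in its highest cluster. For intron 8 the share was 67.1% without the highest cluster and 57.1% by number of clusters (both added after seeing the data). Reading exons of retained-intron transcripts as exon left 15 of 28 clusters intronic in Pla2g6 and 12 of 41 in the others. The difference in intronic share was then 24.3 percentage points, with p = 0.0493 (Fisher's exact test), against p = 0.0778 as reported. Leaving out Pnpla6, chosen after its clusters were seen to be mostly intronic and so no test, gave 53.6 points. With all 6 genes kept, the other alternatives gave p from 0.0778 to 0.282. GCATG was found in 22.6% of windows with 20 nt on each side (12.3% over all clusters) and TGCATG in 20%. The fewer clusters kept, the merging and the shorter windows follow from the construction of these alternatives. The deposited list starts at 10 counts, so weaker clusters cannot be seen. Depth per library was not analysed here, and levels of the transcripts were not measured here.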
